A study of Mus musculus with 4 samples.

Results

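The genes described here encode the nuclear part of respiratory complex I and the factors that assemble it, in cultured embryonic mouse neural progenitors with and without *Stat3*. They were all entries whose symbol begins with Nduf followed by a, b, c, s or v, which gave 45 of the 21091 entries with an expression value. Of these, 36 encode structural subunits, divided into 7 core and 29 accessory subunits. A further 7 are the Ndufaf assembly factors, and the last 2 are *Ndufa4*, whose product is now counted with complex IV, and its paralogue *Ndufa4l2*. The naming rule used no measured value, although the list was chosen with earlier results of these data known.

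Complex I, the NADH:ubiquinone oxidoreductase, is the largest enzyme of the respiratory chain. It passes electrons from NADH along a flavin and a row of iron-sulphur clusters to ubiquinone, and couples this to the pumping of protons across the inner mitochondrial membrane. Its core subunits carry the catalysis and are shared with bacteria, whereas accessory subunits were added around them in evolution. Assembly factors help to build the enzyme from separate modules and are not part of the finished complex. The mitochondrial genome encodes the remaining core subunits, which lie outside the list.

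Progenitors of C57BL/6 mice were taken from brains at embryonic day 11 (E11) or 14 (E14), grown in suspension for 3 days in serum-free medium with EGF and FGF, and profiled by RNA-seq. At each age 1 library came from control progenitors (CTL) and 1 from *Stat3* conditional knockout progenitors (*Stat3* cKO), which makes 4 groups of 1 library. The *Stat3* cKO embryos carried Nestin-Cre, a transgene that expresses Cre from a rat Nestin promoter and enhancer, with both *Stat3* alleles floxed over the part that encodes the SH2 domain. The sample labels give the controls as WT, the methods call the sequenced controls wild-type, and elsewhere controls are described with the Cre and 1 floxed allele, so the exact control genotype of these libraries was not settled, nor was the number of embryos pooled.

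Values are FPKM, fragment counts scaled to transcript length and to the mapped fragments of the library, so that levels can be compared between genes of different length. With 1 library per group there is no spread between replicates, no test of any difference was possible, and each ratio below compares 2 libraries and not 2 conditions. A gene was counted as rising or falling when its ratio reached 2, and 1.5 was used as a lower step. A minimum of 1 FPKM for the mean of the libraries kept 12449 genes for analysis, among them 44 of the 45 complex I genes. Only *Ndufa4l2* was below that minimum. Where 4 values stand in a row, they follow the libraries by age, with CTL before *Stat3* cKO at E11 and then again at E14.

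The 4 libraries summed to between 806587 and 1461770 FPKM, and between 330 and 1589 entries were listed at 0. Read numbers were unknown. From the spacing of very low values, the depth of the other libraries relative to E14 *Stat3* cKO was 1.07 (CTL) and 0.834 (*Stat3* cKO) at E11 and 0.938 for the other E14 library. *Stat3* itself had 7.41, 6.74, 27.6 and 9.55 FPKM, so its level separated the genotypes at E14 and not at E11. All 8 neural progenitor markers (*Sox2*, *Nes* and others) were above 1 FPKM in every library, and they summed to 1518 and 1683 FPKM at E11 and to 7468 and 8113 at E14. Most of that rise was *Fabp7*, at 516, 594, 5245 and 5929 FPKM, while *Pax6* was lower at E14, at 44.2, 48.6, 14.6 and 19.0 FPKM. The 5 neuron markers (*Dcx*, *Tubb3* and others) summed to 619, 651, 905 and 781 FPKM. The 4 mesenchyme markers (*Col1a1*, *Col1a2*, *Pdgfrb*, *Dcn*) summed to 445 and 377 FPKM in the E11 CTL and E11 *Stat3* cKO libraries, with *Col1a2* at 227 and 215 FPKM, and to 6.86 and 5.66 FPKM at E14. The 3 oligodendrocyte-lineage markers (*Olig2*, *Pdgfra*, *Sox10*) summed to 65.2, 84.4, 211 and 216 FPKM, with *Olig2* at 11.9, 15.5, 168 and 134. Each ratio of E14 to E11 below moves with these differences, and their part in it was not tested. In bulk RNA, fewer cells of a type and less RNA per cell cannot be told apart. The E14 libraries also differed in sex-linked genes, with the X-inactivation RNA *Xist* at 13.6 (CTL) and 0.0370 (*Stat3* cKO) FPKM, and the Y-linked *Ddx3y* at 0.0569 and 25.1. At E11 *Xist* was at 46.9 and 39.7 FPKM, and *Ddx3y* was at 0 in both libraries. The ratio of E14 to E11 in *Stat3* cKO thus also compares libraries with and without *Ddx3y*, and the part of sex was not tested.

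Promoter sequence was examined because all structural subunits were higher at E14 and the factor deleted is a transcription factor. RefSeq windows of 250 bases before to 50 after the start (build GRCm38.p6) were found for 39 of the 45 genes. Those without one included *Ndufa2*, *Ndufa4l2*, *Ndufaf6*, *Ndufb9* and *Ndufs1*. The promoters of 4 genes are shown over the 250 bases before the start, for the subunit with the largest rise from E11 to E14 (*Ndufc2*, chr7:97399753-97400002, plus strand), for the subunit with the lowest knockout to control ratio at E14 (*Ndufs6*, chr13:73328483-73328732, minus strand), for the assembly factor with the lowest such ratio (*Ndufaf4*, chr4:24897833-24898082, plus strand) and for a subunit whose window held STAT-type matches (*Ndufb6*, chr4:40279422-40279671, minus strand). Each runs 5′ to 3′ on the strand of the gene, and capitals mark the motif matches described next.
Ndufc2: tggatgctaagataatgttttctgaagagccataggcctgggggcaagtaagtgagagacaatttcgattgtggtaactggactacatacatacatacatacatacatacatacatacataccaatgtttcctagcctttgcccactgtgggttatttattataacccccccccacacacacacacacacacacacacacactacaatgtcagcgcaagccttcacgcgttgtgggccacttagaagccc
Ndufs6: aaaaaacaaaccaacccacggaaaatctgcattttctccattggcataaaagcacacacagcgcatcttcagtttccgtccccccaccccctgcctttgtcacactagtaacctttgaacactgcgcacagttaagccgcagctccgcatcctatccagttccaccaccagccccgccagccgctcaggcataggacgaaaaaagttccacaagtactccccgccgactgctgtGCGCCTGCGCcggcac
Ndufaf4: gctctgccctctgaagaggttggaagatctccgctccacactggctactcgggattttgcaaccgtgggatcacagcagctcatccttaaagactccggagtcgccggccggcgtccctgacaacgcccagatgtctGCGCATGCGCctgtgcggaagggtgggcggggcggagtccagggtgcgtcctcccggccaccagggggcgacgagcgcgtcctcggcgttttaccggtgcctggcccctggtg
Ndufb6: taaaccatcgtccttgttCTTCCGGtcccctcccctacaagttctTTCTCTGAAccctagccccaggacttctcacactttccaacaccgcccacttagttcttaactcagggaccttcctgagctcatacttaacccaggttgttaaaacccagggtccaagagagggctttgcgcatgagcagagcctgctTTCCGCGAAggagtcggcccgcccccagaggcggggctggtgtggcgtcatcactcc

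A set of 4 motifs was searched on both strands over the whole window. TTCNNNGAA, the palindrome bound by STAT dimers, was present in 2 of the 32 structural subunit genes with a window (6.25%), *Ndufa8* and *Ndufb6*, and in none of the 6 Ndufaf genes, beside 8.08% of 9159 analysed genes with a window. In *Ndufb6* it occurred at -205 and at -57 from the start, as TTCTCTGAA and TTCCGCGAA. GCCATNTT, the core of the YY1 motif, was present in 12 of the 32 structural subunit genes (37.5%) beside 10% of the analysed genes. The palindromic motif of NRF1, a factor known for respiratory genes, was present in 7 of 32 (21.9%) beside 11.8%, and in *Ndufaf4* and *Ndufaf5* among the 6 assembly factors. CCGGAAG, an ETS motif, was present in 4 of 32 (12.5%) beside 20%. The 250 bases shown for *Ndufc2* held none of the 4 motifs. The matches in capitals do not overlap each other, and those in *Ndufs6* and *Ndufaf4* are to the NRF1 motif, at -16 and -113. A match describes letters in a window, and no binding was measured in these data. By ChIP-qPCR the study reported STAT3 binding near *Ndufa1*, *Ndufb7*, *Ndufc1* and *Ndufs1*. Most of its primer positions for these genes lie outside the window, so the search did not cover them.

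In every library the structural subunits formed one band of strongly expressed genes, and the assembly factors lay about an order of magnitude below them. The median structural subunit had 86.1 (CTL) and 91.5 FPKM (*Stat3* cKO) at E11, and 181 and 182 FPKM at E14. The corresponding medians of the Ndufaf genes were 6.40, 6.24, 21.0 and 13.3 FPKM. For all analysed genes the median lay between 11.2 and 12.1 FPKM. The interquartile range of the structural subunits was 69.9 to 121 FPKM in E11 CTL and 132 to 244 in E14 CTL. *Ndufa11*, a membrane-arm subunit, stood apart at the bottom, with 10.7, 11.1, 20.1 and 17.9 FPKM by library. The top changed with stage, from *Ndufa2* at 182 and 193 FPKM in the E11 libraries to *Ndufc2* at 668 and 567 in the E14 libraries. The order of the 36 levels was close between libraries of one stage (Spearman rho 0.977 at E11 and 0.977 at E14) and somewhat less so between stages of one genotype (0.864 in CTL, 0.929 in *Stat3* cKO). These coefficients describe 36 genes that share each library and are not tests.

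**Figure D1:**
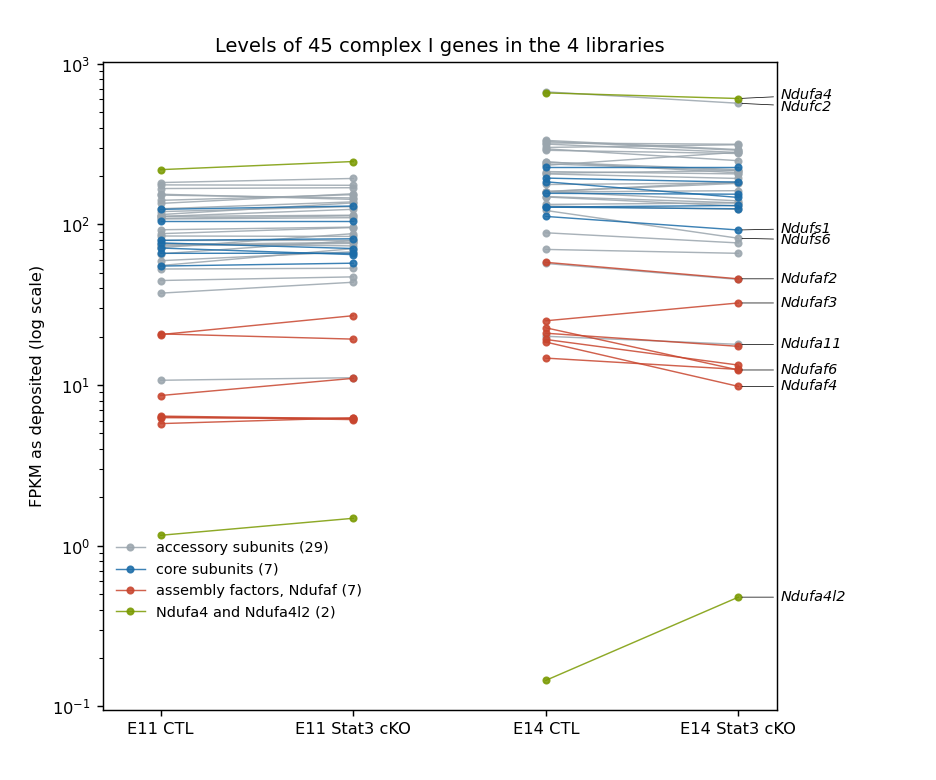
FPKM of each of the 45 complex I genes (log axis) in the 4 libraries, with a line joining CTL and *Stat3* cKO of the same stage and colour giving the class. The structural subunits sit between 10.7 and 668 FPKM, the 7 assembly factors between 5.75 and 58.0, and *Ndufa4l2* is at or below 1.48 in each library.

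The first question was how these genes differed between E11 and E14. In CTL all 36 structural subunits were higher at E14, by 1.35-fold to 5.98-fold, and 18 of 36 reached 2-fold, beside 14.6% of all analysed genes. Their median ratio was 2 (log2 1.0), beside a log2 median of 0.21 over all analysed genes and of 0.60 over the 1752 genes averaging 50 FPKM or more. In *Stat3* cKO all 36 were again higher at E14, by 1.04-fold to 4.56-fold, and 8 reached 2-fold, beside 10.1% of all analysed genes. The median log2 ratio was 0.84, beside 0.06 over all analysed genes and 0.33 over the highly expressed genes. The excess of the subunits over the median analysed gene was nearly the same in both genotypes, 0.79 in CTL and 0.78 in *Stat3* cKO on the log2 scale. With each library set to a sum of 1000000 FPKM, the structural median became 0.45 in CTL and turned to -0.02 in *Stat3* cKO, while the median of all analysed genes was at -0.34 and -0.80. Under that scaling 2 of 36 subunits were lower at E14 in CTL and 21 of 36 in *Stat3* cKO. The matching share of all analysed genes was not computed, but a median below 0 puts most of them lower too. These counts are therefore not particular to complex I. Without the 10 highest entries of each library in the sum, 2 and 3 of 36 were lower, beside all-gene medians of -0.32 and -0.44.

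The 7 core subunits moved as a narrow group. They include *Ndufv1*, which binds NADH and the flavin, *Ndufv2* and *Ndufs1*, which hold iron-sulphur clusters of the NADH-oxidising module, *Ndufs8* and *Ndufs7*, which carry the clusters nearest to ubiquinone, and *Ndufs3*, which helps to form the ubiquinone-reducing module. In CTL their ratios of E14 to E11 lay between 1.79 and 2.32, and in *Stat3* cKO between 1.61 and 2.18. *Ndufs1* was the lowest of the 7 in each library, at 55.0, 57.3, 112 and 92.2 FPKM, and its entry overlaps that of *Gm11602*. As deposited, both E14 libraries lay above both E11 libraries for each of the genes named. Over the scalings the log2 ratio of E14 to E11 in *Stat3* cKO fell as low as -0.17 for *Ndufs1*. It fell to -0.05 for *Ndufs3* and to -0.00 for *Ndufv2*. *Ndufv2* had 79.5, 81.3, 184 and 147 FPKM, and *Ndufs7* had 76.6, 70.7, 156 and 154. *Ndufv1* had 71.2, 64.8, 128 and 125 FPKM. The spread among genotypes at E14 was thus confined to *Ndufs1* and *Ndufv2* among these 7, both lower in *Stat3* cKO, while the other 5 were within 10% of CTL, as were 32.9% of all analysed genes. *Ndufs3* had 105, 105, 194 and 183 FPKM. *Ndufs8* had 66.0, 66.1, 128 and 131. A processed pseudogene with 98.6% identity to part of the *Ndufs3* transcript exists, and how reads were shared between them is not known.

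Among accessory subunits the range was wider. *Ndufc2*, a subunit of the membrane arm, is listed on chromosome 7 from 104548512 to 104556310. It had 112 (CTL) and 124 FPKM (*Stat3* cKO) at E11, then 668 and 567 FPKM at E14. Its 5.98-fold and 4.56-fold ratios were the highest of the structural subunits in CTL and in *Stat3* cKO. *Ndufb2*, of the distal membrane arm, came next at 65.6, 79.2, 238 and 216 FPKM. *Ndufb6*, of the same arm, had 120, 129, 333 and 292 FPKM. These 3 genes rose at least 2-fold in both genotypes, as did *Ndufa1*, *Ndufb3*, *Ndufc1*, *Ndufs5* and *Ndufs7*. At the other end, *Ndufa6*, a small LYR-motif protein, had 154, 143, 208 and 216 FPKM, a 1.35-fold ratio in CTL. *Ndufb11* had 112, 114, 160 and 180 FPKM, and *Ndufv3* had 108, 110, 160 and 184. The *Ndufb11* entry overlaps that of *Rbm10*, and a processed pseudogene has 96.9% identity to part of its transcript. The ratios of E14 to E11 in CTL of *Ndufa6*, *Ndufb11* and *Ndufv3* were the lowest of the 36. By family, 7 of the 10 Ndufb genes reached 2-fold in CTL, against 4 of the 13 Ndufa accessory genes, beside 14.6% of all analysed genes, with medians of 1.10 and 0.82 on the log2 scale. In *Stat3* cKO 3 of the 10 and 1 of the 13 did, beside 10.1%, with medians of 0.87 and 0.81.

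**Figure D2:**
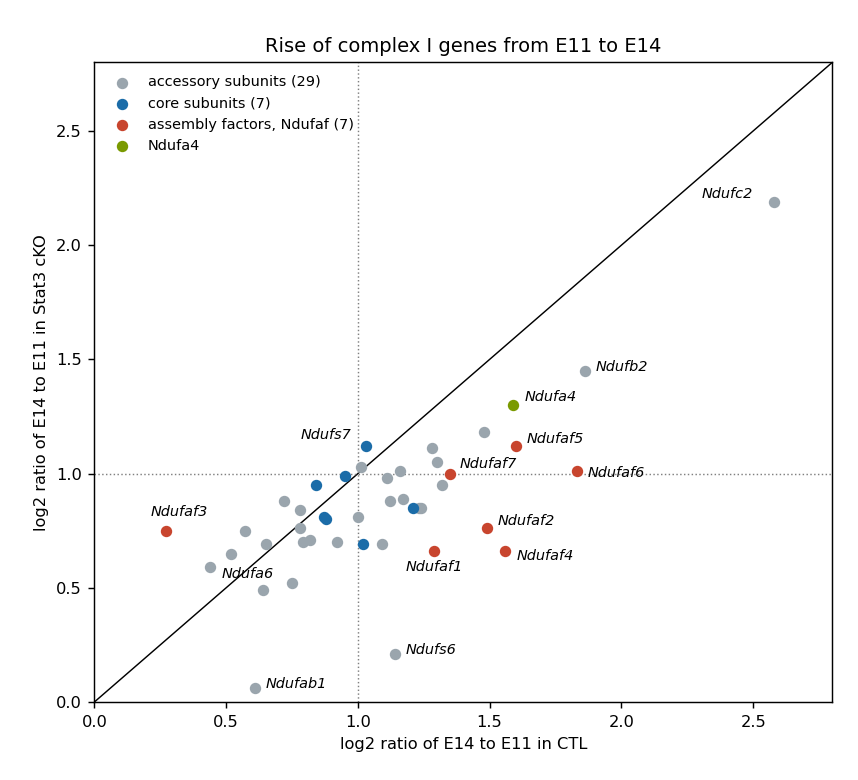
log2 ratio of E14 to E11 in CTL (x axis) against that in *Stat3* cKO (y axis) for the 44 analysed complex I genes, coloured by class, with the line of equal ratios and dotted lines at 2-fold. All points lie above 0 on both axes. Below the line of equal ratios lie 26 of the 36 structural subunits, beside 62.1% of all analysed genes, with *Ndufs6* and *Ndufab1* the farthest. *Ndufa4* and 6 of the 7 assembly factors also lie below it, whereas *Ndufaf3* lies above it.

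A gene can pass 2-fold in one genotype and narrowly miss it in the other. Of the structural subunits, 10 of 36 passed in CTL and not in *Stat3* cKO, beside 7.15% of all analysed genes, and none passed in *Stat3* cKO alone, beside 2.63%. With upper-quartile scaling, none of the 36 passed in CTL alone, beside 2.41% of all analysed genes. Of these 10, 9 were at least 1.5-fold higher at E14 in *Stat3* cKO, beside 56.3% of the analysed genes that passed 2-fold in CTL alone. *Ndufs6* was the exception, at 2.20-fold in CTL but 1.16-fold in *Stat3* cKO. The number also depends on where the threshold falls, since 7 subunits had a ratio in CTL within 0.1 log2 of 2-fold, *Ndufa11*, *Ndufs8* and *Ndufa13* just below it and *Ndufb3*, *Ndufs1*, *Ndufs7* and *Ndufb7* just above it. At 1.5-fold, 33 of 36 passed in CTL and 32 in *Stat3* cKO, beside 30.3% and 21.6% of all analysed genes. The ratio of E14 to E11 was smaller in *Stat3* cKO than in CTL for 26 of 36 structural subunits, beside 62.1% of all analysed genes. With upper-quartile scaling it was smaller for 15 of 36, beside 39.8%, and the log2 medians were 0.63 for CTL against 0.69 for *Stat3* cKO. With sums set to 1000000 FPKM it was smaller for all 36, beside 83% of all analysed genes. Without the 10 highest entries of each library in the sum it was smaller for 25 of 36, beside 57.8%. Across the 36 subunits the rises in the 2 genotypes, which share no library, had a Spearman rho of 0.705, given as a description.

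The other respiratory complexes moved in the same direction and slightly further in CTL. Of 38 listed nuclear-encoded subunits of complexes II to V, 28 reached 2-fold in CTL and 8 in *Stat3* cKO, beside 14.6% and 10.1% of all analysed genes, with median log2 ratios of 1.24 and 0.86. Complex I, at 1.0 and 0.84, lay below them in CTL and close to them in *Stat3* cKO. *Ndufa4*, counted with complex IV, had 219, 246, 658 and 607 FPKM. *Ndufa4l2*, a gene known to be induced by low oxygen, ran the other way, with 1.16, 1.48, 0.145 and 0.478 FPKM, and its entry overlaps that of *Shmt2*.

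**Figure D3:**
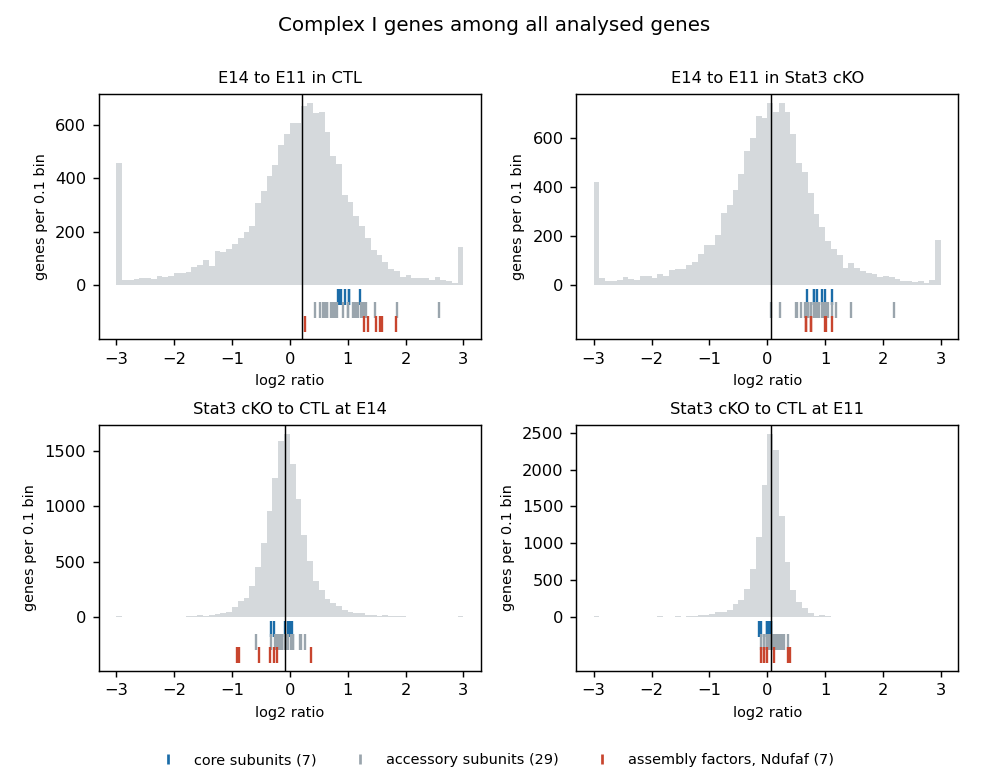
Histograms of the log2 ratio of all analysed genes for the 4 comparisons (grey, bins of 0.1, values beyond 3 in either direction drawn in the end bins; black line, median), with a tick for each core, accessory and assembly gene. In the upper panels the ticks lie mostly to the right of the median of 0.21 or 0.06, and in the lower panels the ticks of the structural subunits surround medians of -0.08 and 0.06.

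The second question was how *Stat3* cKO differed from CTL at each stage. At E14, 26 of 36 structural subunits were lower in *Stat3* cKO, beside 60.1% of all analysed genes. Their ratios ran from 0.670 to 1.21 with a log2 median of -0.09, beside -0.08 over all analysed genes, and 17 of 36 were within 10% of CTL, beside 32.9% of all analysed genes. No structural subunit and no assembly factor reached 2-fold in either direction, beside 3.54% of all analysed genes. The direction of this small median depended on scaling, since it was 0.06 with upper-quartile scaling, with 15 of 36 lower beside 40.2% of all analysed genes, and -0.01 relative to the median gene, with 20 of 36 lower beside 50%. With sums set to 1000000 FPKM, 33 of 36 were lower, beside 68.1% of all analysed genes. The subunits of complexes II to V had a median of -0.13, and the highly expressed genes had one of -0.17.

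*Ndufs6* was the structural subunit that differed most. It encodes a zinc-binding subunit of the NADH-oxidising module that joins late in assembly, and it is listed on chromosome 13 from 73457323 to 73465930. It had 55.4 (CTL) and 70.6 FPKM (*Stat3* cKO) at E11, then 122 and 81.9 FPKM at E14. The E14 *Stat3* cKO value lay nearer to the E11 libraries than to E14 CTL. At E14 it stood at 0.670 of CTL, and the log2 ratio stayed between -0.65 and -0.42 over the scalings tried. The log2 ratio of E14 to E11 in *Stat3* cKO, 0.21 as deposited, reached -0.65 with sums set to 1000000 FPKM. A processed pseudogene with 96.6% identity to part of its transcript exists. *Ndufv2* and *Ndufab1* came next, both with a log2 ratio of -0.33. *Ndufab1*, the mitochondrial acyl carrier protein, which also serves fatty acid and lipoate synthesis, had 37.3, 43.6, 57.1 and 45.4 FPKM. As deposited, its E14 *Stat3* cKO value was thus close to E11 *Stat3* cKO. Over the scalings its log2 ratio of E14 to E11 in *Stat3* cKO ran from -0.80 to 0.06. The highest ratios at E14 were those of *Ndufa3*, of the membrane arm, with 141, 153, 233 and 281 FPKM, then *Ndufv3* at 1.15 and *Ndufb11* at 1.12. *Ndufa1* and *Ndufb11* lie on the X chromosome, where the E14 libraries differed in *Xist*, and the part of sex in their values was not tested.

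Ndufa1, Ndufb5, Ndufb7, Ndufc1 and Ndufs1 are the complex I genes that the study followed by RT-qPCR, having chosen them on these libraries. In those RT-qPCR data, normalised to *Gapdh*, the study reported significantly lower levels in *Stat3* cKO at E14. The values below are FPKM ratios of single libraries. *Ndufa1*, needed for a stable membrane arm, had 71.6, 87.5, 177 and 181 FPKM. *Ndufb5* had 109, 113, 245 and 209, *Ndufb7* had 115, 136, 244 and 219, and *Ndufc1* had 87.5, 95.5, 213 and 206. Each was higher in both E14 libraries than in both E11 libraries as deposited, but with sums set to 1000000 FPKM the log2 ratio of E14 to E11 in *Stat3* cKO was -0.17 for *Ndufb7* and for *Ndufs1*. Their E14 levels in *Stat3* cKO relative to CTL were 1.03, 0.850, 0.899 and 0.966, with *Ndufs1* at 0.825. The log2 ratio between genotypes at E14 turned to 0.10 for *Ndufc1* with upper-quartile scaling and to -0.03 for *Ndufa1* with sums set to 1000000 FPKM.

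At E11, where *Stat3* was at nearly the same level in both libraries, 28 of 36 structural subunits were higher in *Stat3* cKO, beside 61.8% of all analysed genes. Their log2 median was 0.05, beside 0.06 over all analysed genes, and it was -0.02 with upper-quartile scaling, -0.01 relative to the median gene and 0.29 with sums set to 1000000 FPKM. The number lower in *Stat3* cKO, 8 as deposited, was 22, 20 and 0 under these scalings, beside 51.9%, 50% and 12.9% of all analysed genes. The ratios ran from 0.910 for *Ndufv1* to 1.27 for *Ndufs6*, and 27 of 36 were within 10% of CTL, beside 45.6% of all analysed genes. No structural subunit and no assembly factor reached 1.5-fold in either direction, beside 5.84% of all analysed genes. *Ndufs6*, *Ndufa1* and *Ndufb2* had the highest ratios and *Ndufv1*, *Ndufs7* and *Ndufa6* the lowest.

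**Figure D4:**
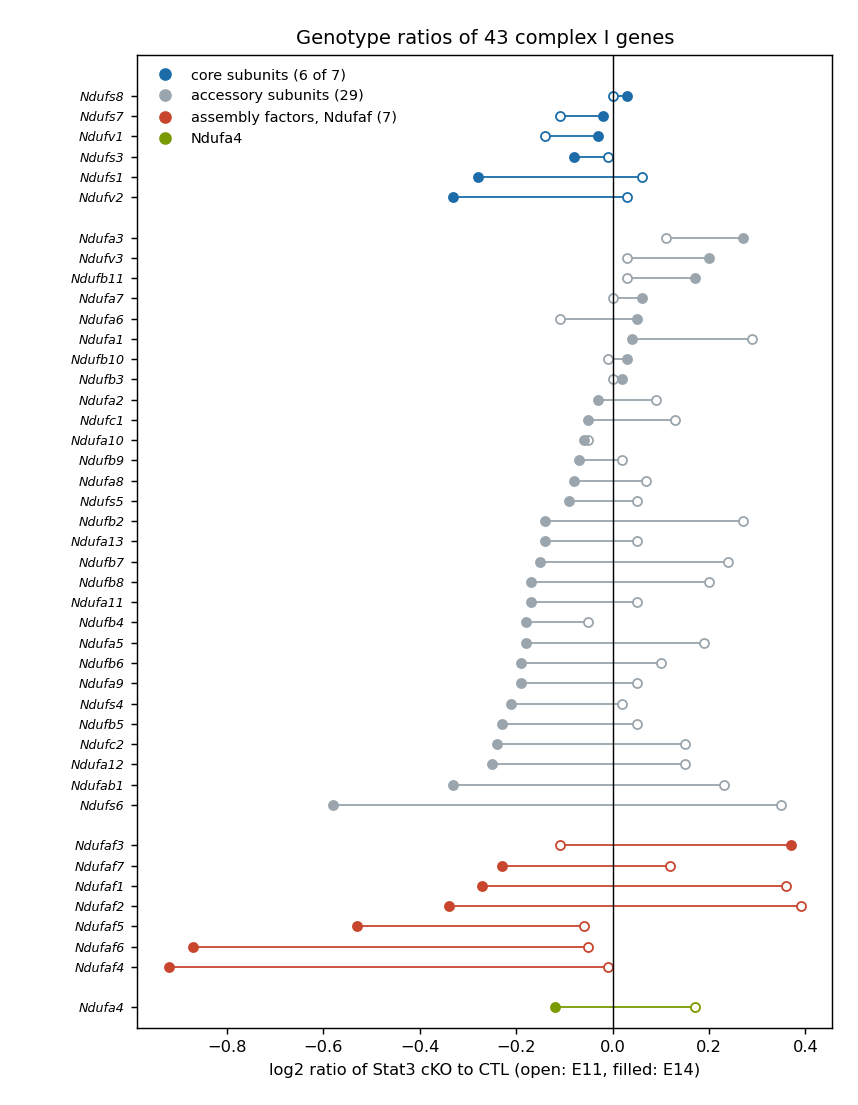
log2 ratio of *Stat3* cKO to CTL for 43 of the 44 analysed complex I genes, at E11 (open circles) and at E14 (filled circles), ordered within each class by the E14 ratio. Most structural subunits lie close to 0 at both stages, *Ndufs6* moves from 0.35 to -0.58, and *Ndufaf4* and *Ndufaf6* reach -0.92 and -0.87 at E14.

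At E14 the ratios of *Stat3* cKO to CTL of the assembly factors ran from 0.530 to 1.29, against 0.670 to 1.21 for the subunits. In CTL, 6 of the 7 Ndufaf genes rose at least 2-fold from E11 to E14, beside 14.6% of all analysed genes, and in *Stat3* cKO 3 did, beside 10.1%. These 3 were *Ndufaf5*, *Ndufaf6* and *Ndufaf7*, with ratios of 2.18, 2.02 and 2.01. The count in *Stat3* cKO was 1 with a pseudocount of 0.1 or relative to the median gene. It was 0 with upper-quartile scaling and with either scaling by sums. The count in CTL was 4 with upper-quartile scaling, 6 relative to the median gene and 3 with either scaling by sums. For these other settings the share of all analysed genes past 2-fold in each genotype was not computed. The median log2 ratio of the 7 was 1.49 in CTL and 0.76 in *Stat3* cKO, and relative to the median gene it was 1.28 and 0.70. With sums set to 1000000 FPKM it was 0.94 and turned to -0.10. At E14, 6 of 7 were lower in *Stat3* cKO, beside 60.1% of all analysed genes, with a median log2 ratio of -0.34. The count was 6 under each of the 4 other scalings. The shares of all analysed genes were 40.2% with upper-quartile scaling and 50% relative to the median gene. They were 68.1% with sums set to 1000000 FPKM and 53.5% without the 10 highest entries in the sum. In the same comparison all 5 neuron markers were lower in *Stat3* cKO, with ratios from 0.690 for *Neurod6* to 0.909 for *Tubb3*, and the part of these markers in the result was not tested. Of the 8 progenitor markers, *Hes5*, *Sox9*, *Sox2* and *Pax6* had ratios of 2.37, 1.39, 1.38 and 1.3, *Fabp7*, *Nes* and *Slc1a3* had 1.13, 1.02 and 1.01, and *Vim* had 0.809. Of the oligodendrocyte-lineage markers, *Sox10* had 3.05, *Pdgfra* 1.7 and *Olig2* 0.799. Their part in it was not tested either. Of the 7, 2 were at least 1.5-fold lower, beside 7.67% of all analysed genes. At E11 the median was -0.01, beside 0.06 over all analysed genes, with 4 of 7 lower, beside 38.2% of all analysed genes. With sums set to 1000000 FPKM, the median at E11 was 0.22. These are small numbers of genes at low levels, where the error of a single FPKM value is unknown.

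The 2 assembly factors that were at least 1.5-fold lower were *Ndufaf4* and *Ndufaf6*. *Ndufaf4*, which with *Ndufaf3* helps to build the ubiquinone-reducing module, had 6.26 (CTL) and 6.20 FPKM (*Stat3* cKO) at E11, then 18.5 and 9.80 FPKM at E14. *Ndufaf6*, which acts early in assembly, had 6.40, 6.17, 22.7 and 12.4 FPKM. For both, E14 *Stat3* cKO as deposited lay between the E11 libraries and E14 CTL, at ratios to E14 CTL of 0.530 and 0.547. Over the scalings the log2 ratio of E14 to E11 in *Stat3* cKO ran from -0.20 to 0.66 for *Ndufaf4*. For *Ndufaf6* it ran from 0.15 to 1.01. Over the scalings the log2 ratios at E14 stayed between -0.98 and -0.76 for *Ndufaf4* and between -0.94 and -0.72 for *Ndufaf6*. *Ndufaf5*, which hydroxylates an arginine of NDUFS7, had 6.34, 6.09, 19.2 and 13.3 FPKM, a ratio of 0.693. *Ndufaf7*, an arginine methyltransferase, had 5.75, 6.24, 14.7 and 12.5. *Ndufs7*, which encodes the substrate of NDUFAF5, had a ratio of 0.985 at E14.

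*Ndufaf1* and *Ndufaf2* changed order between the stages, with *Stat3* cKO above CTL by 1.2-fold or more at E11 and below it by 1.2-fold or more at E14. With upper-quartile scaling the E14 log2 ratios were -0.12 and -0.19, short of 1.2-fold, and relative to the median gene they were -0.19 and -0.26. *Ndufaf1*, of the assembly complex for the proximal membrane arm, had 8.60, 11.0, 21.0 and 17.4 FPKM. *Ndufaf2*, a paralogue of the subunit *Ndufa12* that holds its place during assembly, had 20.6, 27.0, 58.0 and 45.8. Their ratios of E14 to E11 were 2.44 and 2.81 in CTL and 1.58 and 1.70 in *Stat3* cKO. *Ndufaf3* was the exception of the family, with 20.8, 19.3, 25.1 and 32.4 FPKM, the smallest ratio of E14 to E11 in CTL (1.21) and the only ratio above 1 between genotypes at E14 (1.29). Its ratio in CTL was below 1 with upper-quartile scaling and with either scaling by sums. *Ndufaf3* and *Ndufaf4*, whose products bind each other, therefore had ratios on opposite sides of 1 at E14.

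Assembly genes with other names were taken from a list of 11, of which 10 were among the entries and *Coa1* was not. In CTL 3 of the 10 rose at least 2-fold, *Acad9*, *Ecsit* and *Timmdc1*, beside 14.6% of all analysed genes, and in *Stat3* cKO 0 of the 10 did, beside 10.1%. The median log2 ratios were 0.72 and 0.55. *Ecsit*, a partner of *Ndufaf1*, had 11.1, 11.0, 24.0 and 17.7 FPKM. *Timmdc1*, which acts on the proximal membrane arm, had 11.4, 11.8, 25.8 and 18.7. *Acad9*, in the same assembly complex as *Ecsit*, had 13.7, 15.1, 29.9 and 28.2. Of these 3, *Ecsit* and *Timmdc1* were lower in *Stat3* cKO at E14, with ratios of 0.739 and 0.726, and *Acad9* was within 10% of CTL. *Nubpl*, which delivers iron-sulphur clusters, had 10.8, 10.9, 12.9 and 12.2 FPKM, near one level in all 4 libraries. Over the 10 genes the genotypes differed by a median log2 ratio of -0.08 (E14) and 0.09 (E11), *Stat3* cKO over CTL. The gene now called *Ndufaf8* is listed under 1810043H04Rik, which the naming rule does not match, and had 20.9, 18.7, 42.6 and 34.2 FPKM.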

How the data were processed

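RNA-seq of 4 libraries of cultured mouse neural progenitors was used, 1 per combination of stage and genotype as the labels give them. The authors checked reads with FastQC and ran the TopHat and Cufflinks (Tuxedo) workflow, and they deposited 1 table of FPKM values per library. The submitters' processing notes name Bowtie 0.12.2 and the builds mm8 and mm9 with no role. The annotation used is not given in the sources used here. Gene positions are printed as deposited, with the build open between those names. Reads were not processed again, and no per-sample column was left unused (0).

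Plain ratios of FPKM were taken without a pseudocount for genes whose mean reached 1 FPKM, and a 0 in either library gave no ratio. Lists were described by counts past 2-fold and by median log2 ratios beside those of all analysed genes. With 1 library per group no test and no p-value was computed. The members and lists were chosen with earlier results of these data known. Genes named by rule were the core subunits, the complex I genes followed by the study, all Ndufaf genes, *Ndufa4*, *Ndufa4l2* and the 3 highest and 3 lowest structural subunits in CTL from E11 to E14 and between genotypes at each stage, 29 in all, of which 1 core subunit is not reported here singly. Other subunits named were chosen after their values were seen. The lists of other assembly genes, other complexes and markers were written by symbol.

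Alternatives were 4 other scalings, pseudocounts of 0.1 and 1, other minimum means and folds of 1.5 and 3. Transcripts of the 45 genes were compared with all transcripts of the reference by BLAST+ 2.17.0 (identity of at least 95%, at least 50% of the query aligned). Such copies, all processed pseudogenes, were found for *Ndufb11*, *Ndufs3*, *Ndufs5* and *Ndufs6*, and entries of 5 members overlap another gene. Relative depth came from the commonest ratio between libraries among values below 0.3 FPKM. The scripts were tested on simulated data and used Python 3.11.15, numpy 2.4.6, pandas 2.3.3, scipy 1.17.1 and matplotlib 3.10.9.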

Additional observations from a re-analysis of the deposited data

Results flagged for a closer look

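The list median of the structural subunits and 3 genes had opposite orders of *Stat3* cKO and CTL at the 2 stages, the genes by 1.2-fold or more at each stage, with 1 library behind each value, so the difference between stages was not tested. The median log2 ratio over the structural subunits was 0.05 at E11 and -0.09 at E14, a difference of -0.14, and its sign at either stage changed under some scalings. *Ndufs6* had log2 ratios of 0.35 and -0.58, a difference of -0.93. *Ndufaf2* had 0.39 and -0.34, a difference of -0.73. *Ndufaf1* had 0.36 and -0.27, a difference of -0.63. With upper-quartile scaling the E14 ratios of *Ndufaf1* and *Ndufaf2* were -0.12 and -0.19, short of 1.2-fold, and that of *Ndufs6* was -0.42. Relative to the median gene *Ndufaf1* was at -0.19, also short of 1.2-fold, and *Ndufaf2* at -0.26, at the edge of it. Without the 10 highest entries of each library in the sum *Ndufaf1* was at -0.22. Other members also had opposite orders at the stages, but by less than 1.2-fold at 1 stage or both.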

How the results depend on the processing

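Among the alternatives run, list medians changed sign only under other scalings. A median counted as moved beyond 0.1 log2, and a count beyond 1.5 times. Upper-quartile scaling shifted the median of all genes from 0.21 to -0.16 for the rise in CTL, from 0.06 to -0.09 for that in *Stat3* cKO, from -0.08 to 0.07 between genotypes at E14 and from 0.06 to -0.01 at E11. Under it the structural subunits had medians of 0.63 in CTL (3 past 2-fold) and 0.69 in *Stat3* cKO (3), and of 0.06 at E14 and -0.02 at E11 between genotypes, both turned in sign. The assembly factors had 1.12 in CTL, 0.61 in *Stat3* cKO (0 past 2-fold) and -0.19 between genotypes at E14. With ratios centred on the median gene, the structural subunits had 0.79 in CTL (9) and 5 past 2-fold in *Stat3* cKO, and -0.01 between genotypes at E11, turned in sign. The assembly factors then had 1.28 in CTL and 1 past 2-fold in *Stat3* cKO. With sums set to 1000000 FPKM, the median of all genes lay at -0.34 in CTL and -0.80 in *Stat3* cKO for the rise, and at -0.15 at E14 and 0.29 at E11 between genotypes. The structural subunits had 0.45 in CTL (2), -0.02 in *Stat3* cKO (1) and 0.29 at E11, and the assembly factors 0.94 (3), -0.10 (0) and 0.22, and the values of -0.02, -0.10 and 0.22 were turned in sign. Without the 10 highest entries of each library in the sum, the structural subunits had 0.46 (2) in CTL and 0.35 (1) in the knockout, and the assembly factors 0.95 (3) and 0.27 (0). The share of all analysed genes past 2-fold in each genotype was not computed under these scalings, so these counts cannot be set against it. In CTL and not in *Stat3* cKO, 0, 5, 1 and 1 of 36 structural subunits passed 2-fold under the 4 scalings in this order. The shares of all analysed genes were 2.41%, 3.82%, 2.57% and 1.91%, against 10 of 36 and 7.15% as deposited. A shift of scale is the same for every gene of a comparison, so the distance of a list from the median of all genes does not change.

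With a pseudocount of 0.1 or 1, 1 assembly factor reached 2-fold in *Stat3* cKO instead of 3. The share of all analysed genes past 2-fold was not computed with a pseudocount, so this count cannot be set against it. With a fold of 1.5, 33 structural subunits passed in CTL and 32 in *Stat3* cKO, beside 30.3% and 21.6% of all analysed genes, all 7 assembly factors passed in *Stat3* cKO, and 2 were lower at E14 between genotypes. With a fold of 3, 2 structural subunits and 2 assembly factors passed in CTL, beside 4.99% of all analysed genes, and 1 and 0 did in the knockout, beside 4.71%. Other minimum means, and adding *Ndufa4* to the subunits (*Ndufa4l2* was below the minimum mean and did not enter), changed none of the list medians or counts beyond these limits.

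No paired analysis was possible because each group had 1 library, and for the same reason leaving out a replicate was not run. The depth of each library in reads is unknown, so no interval can be given for any value.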
